A study of Zea mays with 109 samples.

Results

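The genes described here are 5 maize zein genes and 2 genes for transcription factors that act on zein promoters, opaque2 (o2) and prolamin-box binding factor 1 (pbf1). They were chosen by identifier, with their levels in these tissues already known, from the 48367 entries of a total RNA table and the 39498 entries of a ribosome-bound RNA table. The 7 members are the 27 kDa gamma zein Zm00001d020592, the 50 kDa gamma zein Zm00001d020591, the 15 kDa beta zein Zm00001d035760, the 18 kDa delta zein Zm00001d037436, the alpha zein Zm00001d019155, o2 (Zm00001d018971) and pbf1 (Zm00001d005100). The files pair no identifiers with gene names, so these names come from the choice of the members. The total RNA table listed 6 members, all but the alpha zein, and the ribosome-bound table and the list of protein pairs each held all 7.

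All samples came from untreated plants of the inbred line B73, raised in a greenhouse at 25 °C with 12 h of light a day. Total RNA was measured in 26 libraries (1 endosperm, 1 embryo, 6 inflorescence, 3 SAM or shoot apical meristem, 2 stem, 2 root and 11 leaf) and ribosome-bound RNA in 20 (1 endosperm, 1 embryo, 4 inflorescence, 2 SAM, 2 stem, 2 root and 8 leaf). Each library pooled 3 replicates of 5 to 10 plants, so every tissue was 1 library with no replicate spread, and the kernel was sampled once, as Embryo(R2) and Endosperm(R2). A list of 365234 protein pairs came from 11 cDNA pools, of which the one labelled Group 3 held endosperm at 15 and 25 DAP. Levels are in TPM, a relative transcript abundance scaled for transcript length and library size but keeps no read depth. Summed over its entries, a total RNA library held 159407 to 395863 TPM and a ribosome-bound library 999999 to 1000001 TPM.

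Zeins are the prolamin storage proteins of the maize kernel. Endosperm cells make them on the rough endoplasmic reticulum and pack them into protein bodies, in which the cysteine-rich gamma and beta zeins form the shell and the alpha and delta zeins fill the core. o2 encodes a bZIP factor and pbf1 a DOF factor, and both bind elements in zein promoters; o2 mutants are known for soft, opaque kernels with little alpha zein. Zein genes occur as families with near-identical copies, so the counting of reads across copies is uncertain for each zein value below.

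The zeins were among the most abundant RNAs of the endosperm. In total RNA, the 27 kDa gamma zein stood at 9021 TPM in the endosperm and ranked number 3 of 48367 entries, and the 15 kDa beta zein ranked number 6 at 5141 TPM. The 18 kDa delta zein, a methionine-rich protein, reached 1746 TPM (rank 19), and the 50 kDa gamma zein was the lowest of the 4 listed zeins at 519 TPM (rank 64). These 4 zeins together made up 5.11% of the listed endosperm TPM. Zeins are themselves the usual markers of endosperm, so a check of the endosperm label with them is circular.

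In ribosome-bound RNA the order was different, and the alpha zein led all 39498 entries with 58926 TPM, or 5.89% of the library. The 15 kDa beta zein followed at rank 3 with 25412 TPM and the 27 kDa gamma zein at rank 7 with 17097 TPM. The 50 kDa gamma zein was at 7400 TPM (rank 21) and the 18 kDa delta zein at 5489 TPM (rank 30). Together the 5 zeins held 114325 TPM, 11.4% of the ribosome-bound endosperm library.

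**Figure D1:**
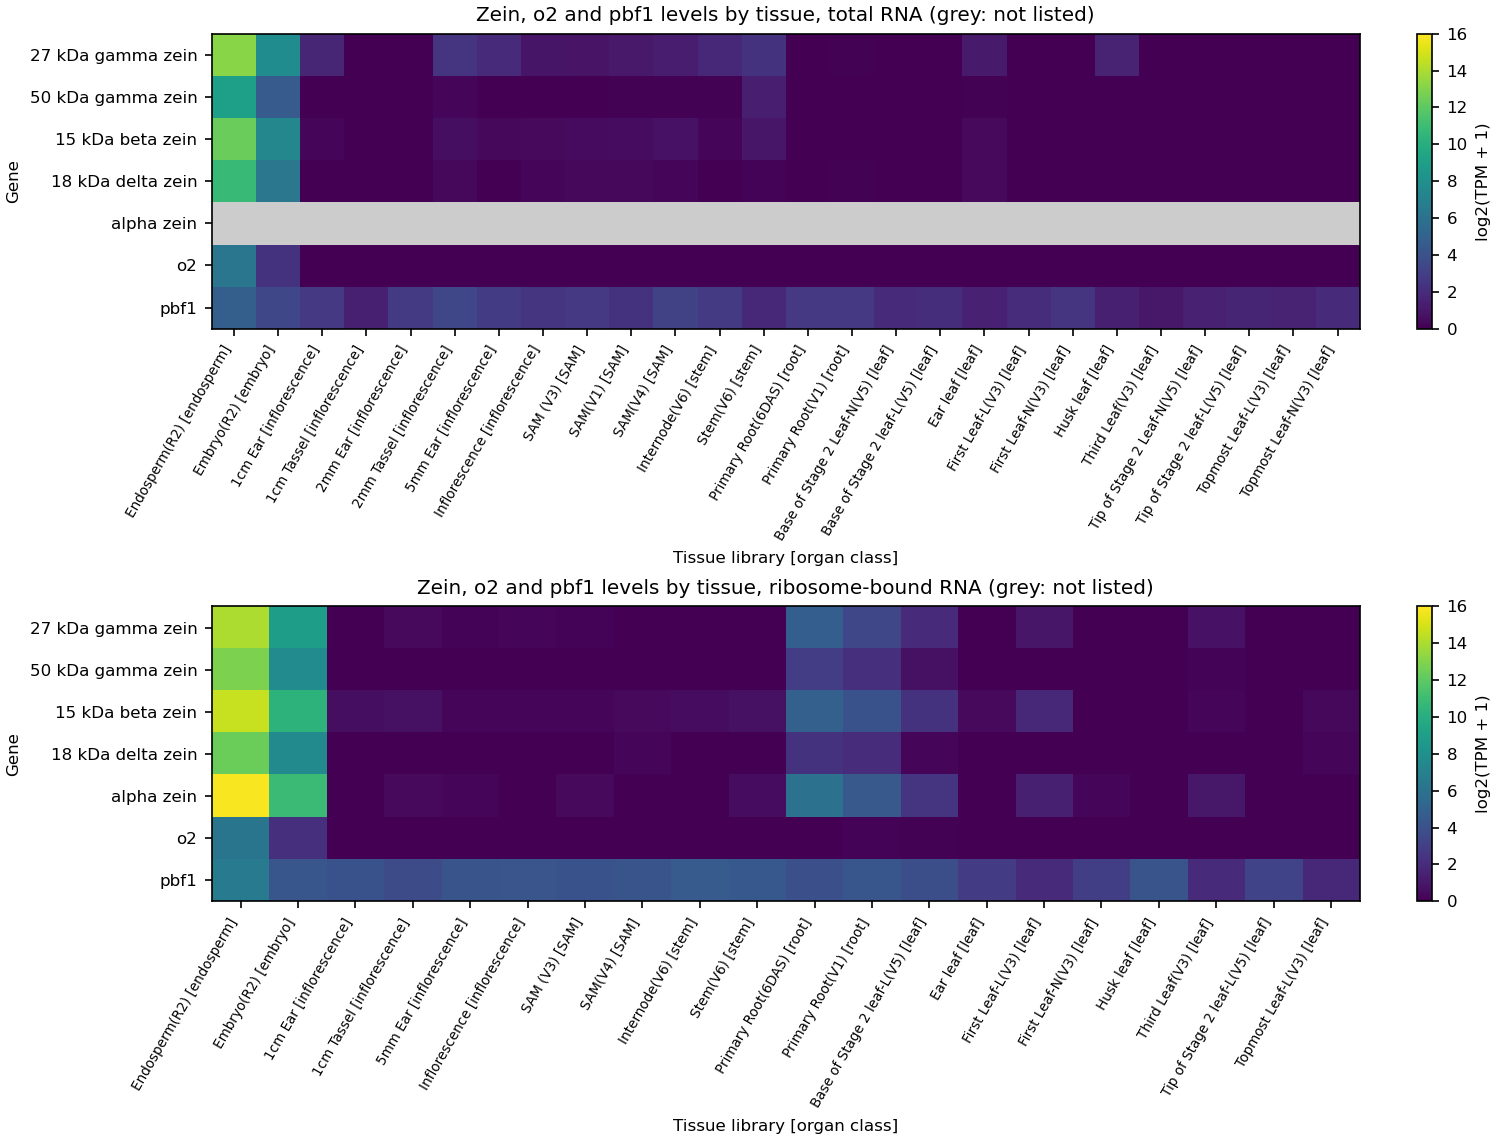
Levels of the 7 genes, as log2(TPM + 1), in each total RNA library (top) and ribosome-bound library (bottom), with tissues on the x axis and their organ class in brackets; grey marks a gene that the table does not list. The zeins and o2 are bright in endosperm and weaker in embryo, whereas pbf1 is above 0 in every library.

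The embryo held every listed zein at a few percent of its endosperm level. In total RNA the 27 kDa gamma zein stood at 218 TPM in the embryo, 41.4-fold below the endosperm, and the 15 kDa beta zein at 171 TPM, 30.1-fold below. The 18 kDa delta zein was at 80.9 TPM and the 50 kDa gamma zein at 22.7 TPM, which was 21.6-fold and 22.8-fold below the endosperm. As a share of the endosperm level the embryo thus held 2.42% of the 27 kDa gamma, 3.32% of the beta, 4.38% of the 50 kDa gamma and 4.64% of the delta zein.

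The ribosome-bound embryo library gave similar shares. The alpha zein was at 1947 TPM there, 3.30% of its endosperm level, and the beta zein at 1325 TPM, 5.21% of it. The 27 kDa gamma zein was at 496 TPM (2.90%), the 50 kDa gamma zein at 212 TPM (2.87%) and the delta zein at 198 TPM (3.60%). The beta zein had the largest embryo share of the 5 zeins in ribosome-bound RNA, but not in total RNA, where the delta zein did.

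Other endosperm entries were also listed in the embryo at a few percent of their endosperm level. Of all total RNA entries with at least 100 TPM in endosperm and under 1% of that level in every library outside the kernel, 112 were not members, and their embryo level was a median of 5.53% of the endosperm level (quartiles 4.43% and 6.45%). In ribosome-bound RNA the same rule took 64 entries outside the members, with a median embryo share of 3.77% (quartiles 2.80% and 5.20%). In total RNA the shares of all 4 listed zeins lay below that median, and 3 of the 4 below the lower quartile. In ribosome-bound RNA the beta zein lay just above the upper quartile and the other 4 between the quartiles. The part of endosperm RNA in the embryo values was not tested. In such bulk samples fewer cells of a type and less RNA per cell cannot be told apart.

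By a threshold of 4-fold on the log2(TPM + 1) scale, 5 of the 6 listed members were higher in endosperm than embryo in total RNA, all but pbf1, beside 2.32% of the 24997 entries tested. In ribosome-bound RNA 7 of 7 were past it, beside 1.83% of 25807 entries. The members were chosen for this pattern, so these counts describe the choice.

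**Figure D2:**
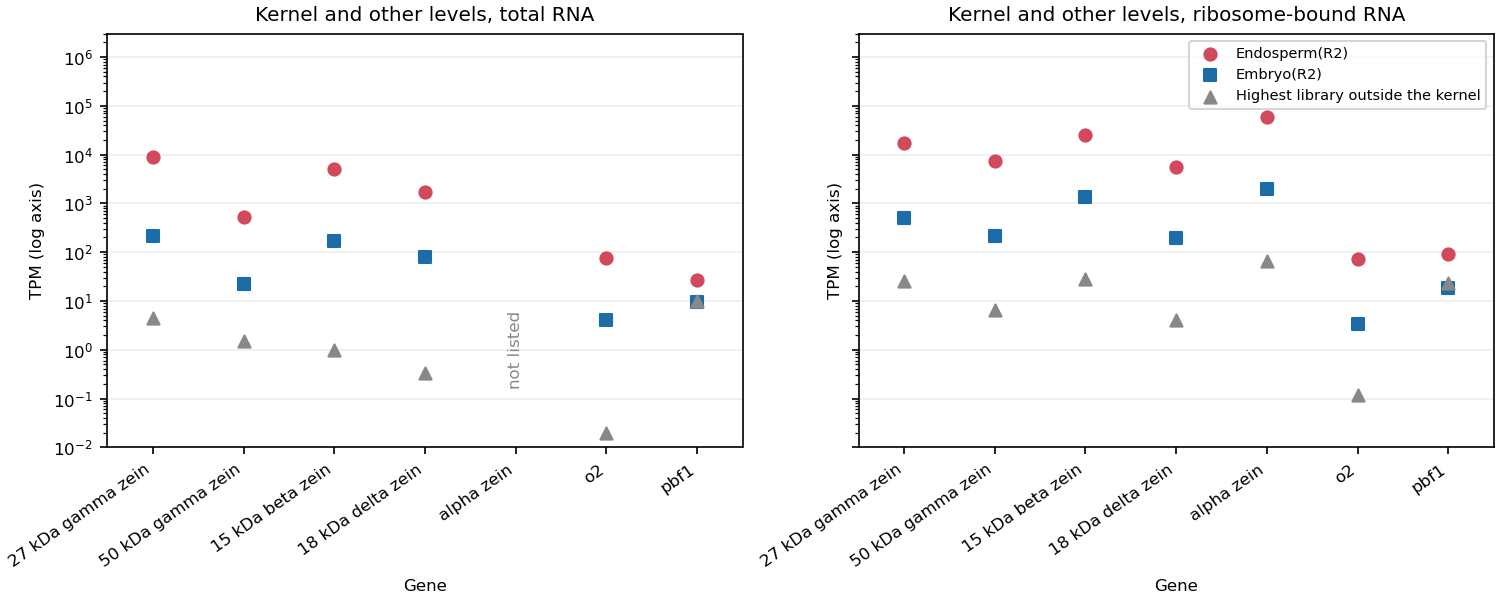
TPM of each gene (log axis) in Endosperm(R2), in Embryo(R2) and in the highest library outside the kernel, for total RNA (left) and ribosome-bound RNA (right). For the zeins and o2 the 3 symbols are well apart in both panels, whereas for pbf1 the embryo symbol (9.49 and 18.6 TPM) lies beside the highest library outside the kernel (9.83 and 23.7 TPM).

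Outside the kernel, total RNA of the zeins was at most a few TPM, and the 27 kDa gamma zein reached the highest level. The 27 kDa gamma zein ranged from 0 to 4.55 TPM over the 24 libraries (median 0.05), with its highest values in the 2mm Tassel (4.55 TPM) and Stem(V6) (3.98 TPM). The listed sums of these libraries were unequal, at 395863 and 172884 TPM, so their order depends on the scale. As a share of the listed TPM, the 4 zeins in sum were at 0.0014% in the 2mm Tassel and 0.0038% in Stem(V6). The 27 kDa gamma zein was at 2.68 TPM in the 5mm Ear, 2.49 in Internode(V6), 2.36 in the 1cm Ear, 1.92 in the husk leaf, 1.34 in SAM(V4), 1.26 in the ear leaf and 1.18 in SAM(V1). Those 9 libraries were the only ones outside the kernel with at least 1 TPM of it.

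The other zeins stayed lower there. The 50 kDa gamma zein reached 1.49 TPM in Stem(V6) and at most 0.19 TPM elsewhere, and it was listed at 0 in 13 of 24 libraries. The beta zein had its maximum of 0.97 TPM in Stem(V6) and the delta zein its maximum of 0.33 TPM in the ear leaf. All 4 zeins were listed at 0 in 9 of the 24 libraries, which were the 9 seedling and stage 2 leaves, and the husk leaf and ear leaf were the only leaf libraries with any zein value (summed zein level 2.00 and 1.95 TPM). The 2 primary roots, the 2mm Ear and the 1cm Tassel had summed zein levels of 0.04 to 0.17 TPM.

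The low zein values outside the kernel did not keep the proportions of the endosperm. In the endosperm the 15 kDa beta zein was 0.570 times the 27 kDa gamma zein and the 18 kDa delta zein 0.194 times, and in the embryo these ratios were 0.784 and 0.371. In the 1cm Ear they were 0.0975 and 0.00424 and in the 2mm Tassel 0.119 and 0.0615, so that the 27 kDa gamma zein took a larger share of the zein RNA there. In Stem(V6) the 50 kDa gamma zein was 0.374 times the 27 kDa gamma zein, against 0.0575 in the endosperm. In SAM(V4) the beta zein ratio of 0.530 and the delta zein ratio of 0.172 lay nearer to those of the endosperm. All of these ratios outside the kernel rest on values below 5 TPM with unknown depth.

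In ribosome-bound RNA the tissues with zein signal were different ones. Primary Root(6DAS) held 130 TPM of the 5 zeins in sum and Primary Root(V1) 51.8 TPM, while the base of the stage 2 leaf-L(V5) held 12.3 TPM and First Leaf-L(V3) 5.08 TPM. The other 14 libraries outside the kernel held at most 2.13 TPM, and all 5 zeins were listed at 0 in 2 of them, the husk leaf and the tip of the stage 2 leaf-L(V5). The total RNA libraries of the 2 roots had held 0.06 and 0.17 TPM of the 4 listed zeins.

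Every zein had its highest value outside the kernel in Primary Root(6DAS) and its next highest in Primary Root(V1). The alpha zein was at 65.0 and 20.7 TPM in these roots, the beta zein at 28.8 and 15.1 TPM, and the 27 kDa gamma zein at 25.9 and 9.41 TPM. The 50 kDa gamma zein was at 6.51 and 3.38 TPM and the delta zein at 4.14 and 3.15 TPM. In Primary Root(6DAS) the zeins stood at 0.0754% (delta) to 0.152% (27 kDa gamma) of their endosperm level.

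The proportions in the roots were compared with those of the kernel. The alpha zein was 2.50 and 2.20 times the 27 kDa gamma zein in the 6DAS and V1 roots, against 3.45 times in the endosperm and 3.92 times in the embryo. The beta zein was 1.11 and 1.60 times the 27 kDa gamma zein in the roots, 1.49 times in the endosperm and 2.67 times in the embryo. The 50 kDa gamma zein was 0.251 and 0.359 times in the roots, against 0.433 in the endosperm and 0.427 in the embryo. The delta zein was 0.160 and 0.335 times, against 0.321 and 0.399. In Primary Root(6DAS) all 4 ratios lay below those of the endosperm, so the 27 kDa gamma zein took a larger share there. Over the 69 ribosome-bound entries that met the endosperm rule above, 5 zeins included, the median level was 0.110% of the endosperm level in Primary Root(6DAS) and 0.0527% in Primary Root(V1). In total RNA the same medians were 0.0272% and 0.0255% over 116 entries, 4 zeins included. The rule itself holds these shares under 1%, and the part of endosperm RNA in the root values was not tested.

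Of the regulators, o2 was near 0 outside the kernel, as the zeins were, and pbf1 was not. o2 total RNA stood at 76.8 TPM in the endosperm (rank 527) and 4.12 TPM in the embryo, 18.6-fold lower. Outside the kernel o2 was listed at 0 in 16 of 24 libraries and reached at most 0.02 TPM, in the 1cm Tassel. Ribosome-bound o2 was at 73.9 TPM in the endosperm and 3.39 TPM in the embryo, 21.8-fold lower, and it was listed at 0 in 16 of 18 libraries outside the kernel. The 2 exceptions were Primary Root(V1) with 0.12 TPM and the base of the stage 2 leaf-L(V5) with 0.07 TPM, and in Primary Root(6DAS), where the zeins were highest, o2 was listed at 0.

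pbf1 was measured in every tissue at 1 TPM or more. Its total RNA was at 27.5 TPM in the endosperm and 9.49 TPM in the embryo, a 2.90-fold difference. Outside the kernel it ranged from 1.04 TPM in the Third Leaf(V3) to 9.83 TPM in the 2mm Tassel, with a median of 3.67 TPM over 24 libraries. The 2mm Tassel thus stood slightly above the embryo, and the endosperm was the only library above 10 TPM. The listed sums of the 2mm Tassel and embryo libraries were 395863 and 377604 TPM, so their order depends on the scale of each library.

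By organ class, pbf1 total RNA was at 5.68 ± 1.81 TPM in SAM (SD, n = 3), 5.47 ± 2.66 TPM in inflorescence (SD, n = 6) and 2.41 ± 0.916 TPM in leaf (SD, n = 11). The 2 roots were at 5.26 and 5.39 TPM, and the stem libraries at 2.47 and 5.59 TPM. SAM, inflorescence and root did not differ beyond their spread. The leaf libraries, at 1.04 to 4.20 TPM, lay below both roots and overlapped with the SAM, the inflorescence and the stem libraries.

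Ribosome-bound pbf1 was at 90.9 TPM in the endosperm and 18.6 TPM in the embryo, a 4.89-fold difference. The next highest libraries were the stem ones, Internode(V6) with 23.7 TPM and Stem(V6) with 20.5 TPM, and both stood above the embryo. pbf1 was at 16.1 ± 1.51 TPM in SAM (SD, n = 2), 15.4 ± 2.39 TPM in inflorescence (SD, n = 4) and 7.47 ± 5.31 TPM in leaf (SD, n = 8), and the roots were at 14 and 18.3 TPM. The leaf class spanned 2.62 to 17.1 TPM, with the husk leaf highest and inside the range of the inflorescence, so leaf and inflorescence overlapped. Between o2 and pbf1 the endosperm order was not the same in the 2 assays: o2 was the higher in total RNA and pbf1 in ribosome-bound RNA.

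**Figure D3:**
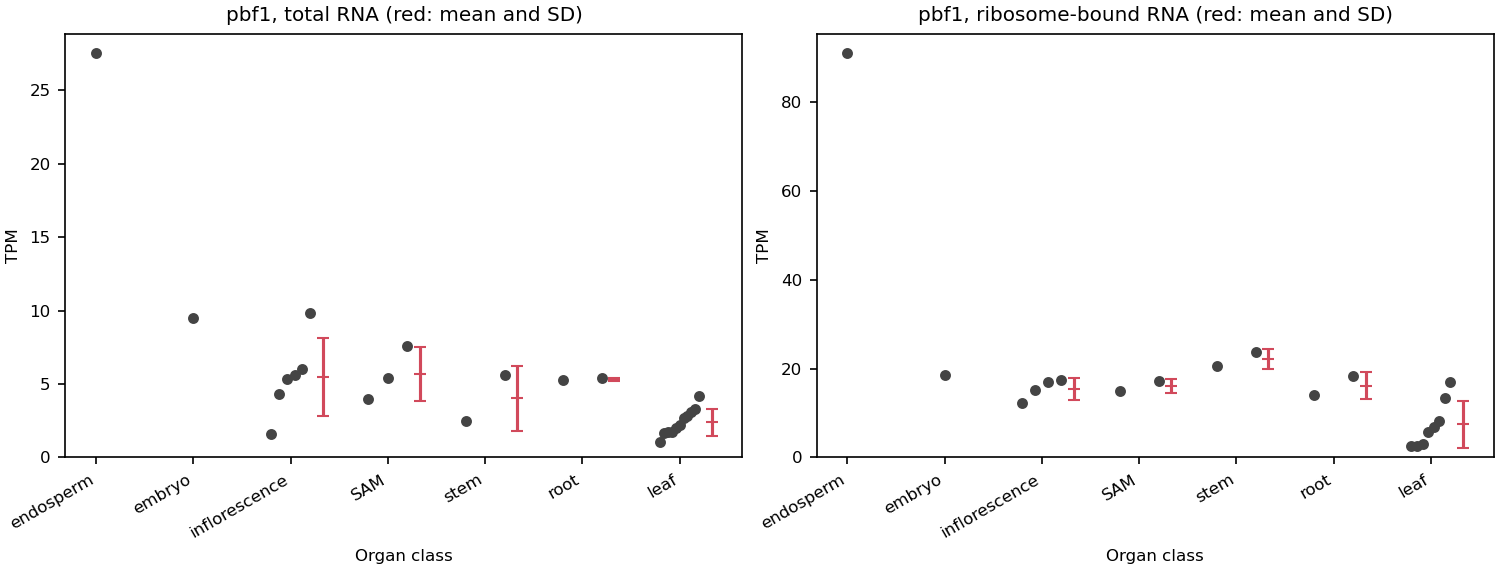
pbf1 levels in TPM by organ class in total RNA (left) and ribosome-bound RNA (right), with 1 point per tissue library and, in red, the mean and SD of classes with 2 or more libraries. The endosperm point (27.5 and 90.9 TPM) stands above all others, and the points of the other classes overlap in large part.

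Ribosome-bound levels relative to total RNA differed among the zeins. How each assay assigned reads to near-identical zein copies was not tested. The gene model Zm00001d019156, numbered next to the alpha zein, was at 0.18 TPM in total and 6587 TPM in ribosome-bound endosperm RNA. Both tables were normalized separately, so each ratio, as a log2 difference of TPM + 1, is given relative to the median of the 10812 genes with at least 1 TPM in both endosperm libraries, which was 1.30. The 50 kDa gamma zein went from 519 TPM in total RNA to 7400 TPM in ribosome-bound RNA, a relative log2 ratio of 2.53, at rank 105 from the top. The beta zein had a relative log2 ratio of 1.00, above 84.7% of genes, and the delta zein one of 0.35, above 63.7%. The 27 kDa gamma zein, the most abundant listed zein in total RNA, was below the median gene at -0.38 (above 35.5% of genes). The embryo gave the same order, with 2.00 for the 50 kDa gamma zein, 1.78 for the beta zein, 0.12 for the delta zein and 0.02 for the 27 kDa gamma zein. The part of endosperm RNA in these embryo values was not tested.

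The regulators also differed in this ratio. o2 was at 76.8 TPM in total and 73.9 TPM in ribosome-bound endosperm RNA, a relative log2 ratio of -1.36 that exceeded 8.36% of genes. Its embryo value was -1.38, above 6.83% of 14498 genes. pbf1 had a relative log2 ratio of 0.38 in endosperm (above 65.2% of genes) and -0.26 in embryo (above 39.4%). Over the 20 tissues in both tables, pbf1 ranged from -0.84 in First Leaf-N(V3) to 0.42 in the husk leaf (median -0.24), and the endosperm value was the second highest. With 1 library per tissue and assay, none of these ratios had a replicate check.

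**Figure D4:**
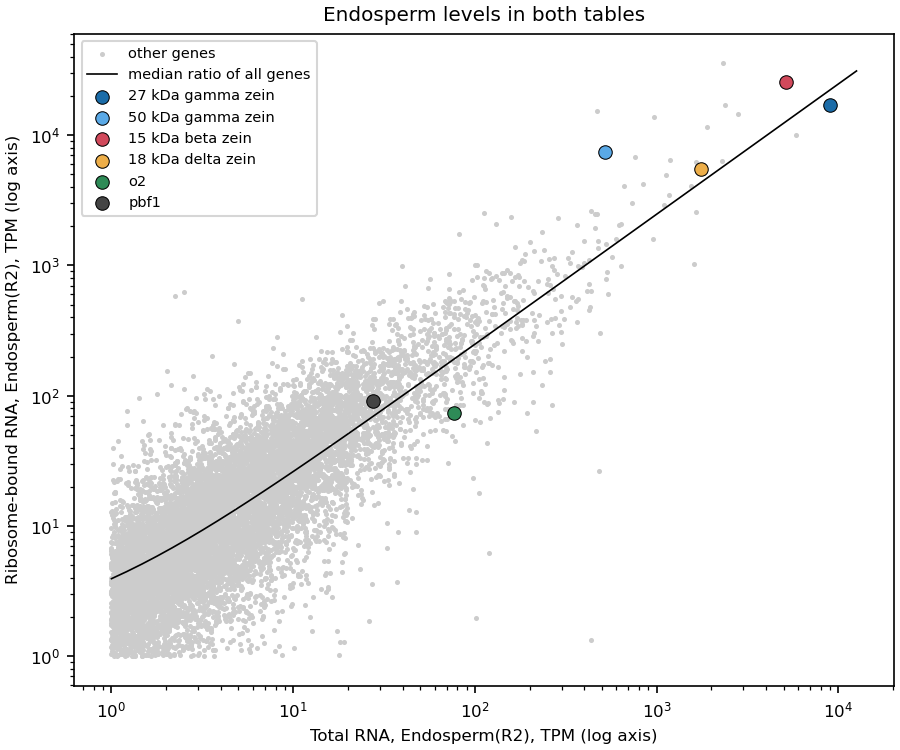
Ribosome-bound TPM against total RNA TPM in Endosperm(R2), both on log axes, for the 10812 genes with at least 1 TPM in both libraries (grey), with the median ratio of all genes as a line and the 6 members listed in both tables in colour. The 50 kDa gamma zein (519 against 7400 TPM) lies far above the line, o2 (76.8 against 73.9 TPM) lies below it, and the 27 kDa gamma zein lies just under it.

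Likeness of pattern was measured as Pearson's r of log2(TPM + 1) over the 26 total RNA libraries, as a description, since the points share the pooled plants and the scaling of each library. The entries most like the 27 kDa gamma zein were ZmmRNA006903 (r = 0.987), ZmLnc004056 (r = 0.985) and Zm00001d049476 (r = 0.985). Their endosperm levels were 5415, 2887 and 2320 TPM, and for all 3 the highest library outside the kernel was Stem(V6), with 11.2, 4.76 and 4.68 TPM. Of 28485 entries compared, 141 had an r above 0.95 with the 27 kDa gamma zein.

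For o2 the same threshold took 1145 entries, since o2 is near 0 outside the kernel and r then rests on the 2 kernel libraries. The nearest to o2 were ZmLnc006430, Zm00001d016351 and ZmLnc001584, at 1.31, 13.5 and 55.2 TPM in the endosperm and at most 0.03 TPM outside the kernel. For pbf1 only 2 entries passed 0.95, Zm00001d008846 (r = 0.957) and Zm00001d024813 (r = 0.953), followed by ZmmRNA004531 (r = 0.949). All 3 had their highest level outside the kernel in the 2mm Tassel, as pbf1 did. That library also had the largest listed sum in total RNA, 395863 TPM, so a shared maximum there may reflect its scale, which was not tested. Zm00001d008846 stood at 58.8 TPM in the endosperm, 24.2 TPM in the embryo and 21.7 TPM in the 2mm Tassel.

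Between the members, r over all 26 libraries was 0.965 to 0.998 among the 4 listed zeins and 0.946 to 0.986 between o2 and the zeins, and it was 0.676 to 0.739 between pbf1 and the zeins. Without the 2 kernel libraries, r among the zeins fell to 0.248 to 0.789 in total RNA. There it was 0.161 to 0.357 between o2 and the zeins and -0.013 to 0.419 between pbf1 and the zeins. In total RNA the closer likeness of o2 to the zeins thus rested on the kernel libraries. In ribosome-bound RNA r among the zeins was 0.911 to 0.995 over the 18 libraries outside the kernel, where the roots and the base of the stage 2 leaf carried most of the zein signal. Over the same libraries r was 0.534 to 0.598 between o2 and the zeins and 0.0948 to 0.192 between pbf1 and the zeins. Ribosome-bound o2 was listed at 0 in 16 of those 18 libraries and reached at most 0.12 TPM, so its r rests on values near 0.

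Gene models outside the 7 members and numbered within 10 of a member were examined for an endosperm level of at least 10 TPM that was above every other library. The alpha zein had 3 such neighbours among 12 listed in ribosome-bound RNA, where 1.72% of all entries met that rule. They were Zm00001d019156 with 6587 TPM in endosperm and 245 TPM in embryo, Zm00001d019162 with 795 and 6.57 TPM, and Zm00001d019160 with 271 and 5.87 TPM. In total RNA Zm00001d019156 was listed at 0.18 TPM in endosperm, and the table did not list the other two. The 27 kDa and 50 kDa gamma zeins are numbered next to each other and meet the rule themselves. Beyond the members, they, the beta zein and pbf1 had 0 such neighbours in either table. The delta zein had 1 among 16 listed in each assay, Zm00001d037439, with 16.2 TPM in total RNA and 10.9 TPM in ribosome-bound RNA. o2 had 1 among 19 listed in total RNA, where 1.92% of all entries met the rule. It was Zm00001d018969, whose endosperm level of 32.3 TPM was close to its 30.7 TPM in Primary Root(V1).

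In the list of protein pairs, o2 had 997 partners, at rank 60 of 25147 proteins, and pbf1 had 140, at rank 834. The median protein had 7 partners. Of the zeins the alpha zein had 329, the beta zein 66, the 27 kDa gamma zein 65, the 50 kDa gamma zein 63 and the delta zein 11. The list gave no score, count or pool per pair, so a pair cannot be assigned to endosperm or weighted.

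Of the 21 possible pairs between members 3 were listed, and 0.116% of all possible protein pairs were. The 3 listed pairs were o2 with pbf1, o2 with the alpha zein, and the alpha zein with the 27 kDa gamma zein. Each held o2 or the alpha zein, with 997 and 329 partners against 7 for the median protein. The 0.116% takes no account of partner numbers, so it is no measure of how many member pairs to expect. o2 and pbf1 shared 23 partners, 2.31% of those of o2 and 16.4% of those of pbf1, while partners of o2 made up 3.96% of the other proteins. The alpha zein shared 36 of the 65 partners of the 27 kDa gamma zein, 35 of the 63 of the 50 kDa gamma zein and 33 of the 66 of the beta zein, which was 10.9%, 10.6% and 10.0% of its own partners. It shared 50 partners with o2 and 34 with pbf1, 5.02% and 24.3% of theirs. The partners of o2 had a median of 42 partners each and those of pbf1 115.5. For partners of the 27 kDa gamma, 50 kDa gamma and beta zeins the medians were 370, 330 and 304.5. Proteins with so many partners are shared more often, and the alpha zein itself had 329 partners among 25147 proteins. The overlap to expect from these partner numbers was not computed.

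The partners of o2 with the highest endosperm RNA mostly had far lower levels in the embryo and elsewhere. They were picked by that endosperm level, which favours lower levels elsewhere, so they do not stand for the o2 partners at large. Over the 835 o2 partners tested in total RNA, the median log2 difference of endosperm minus embryo was -0.68, beside -0.60 for all entries. Zm00001d005793 stood at 2371 TPM in endosperm, 58.9 TPM in embryo and at most 0.40 TPM elsewhere. Zm00001d049476, also one of the 3 entries most like the 27 kDa gamma zein, was at 2320 TPM in endosperm and 115 TPM in embryo in total RNA, and at 35554 and 1120 TPM in ribosome-bound RNA. Zm00001d009292 was at 1092 TPM in endosperm and 85.7 TPM in embryo. Zm00001d010321 was at 1884 and 165 TPM but was also listed in leaf, with 22.6 TPM in Topmost Leaf-L(V3) and a ribosome-bound leaf mean of 34.8 ± 33.3 TPM (SD, n = 8). The least kernel-biased was Zm00001d031168, at 1602 TPM in endosperm, 960 TPM in embryo and 1149 TPM in the 5mm Ear.

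The 5 pbf1 partners highest in endosperm were picked in the same way. Among them, Zm00001d040189 alone was near 0 outside the kernel. It was at 213 TPM in endosperm, 12.7 TPM in embryo and at most 0.05 TPM elsewhere. Zm00001d045431, which had 3064 partners, was at 763 TPM in endosperm, 1086 TPM in embryo and at most 292 TPM elsewhere. Zm00001d014258 was at 398 TPM in endosperm, 428 TPM in embryo and at most 86.8 TPM elsewhere. For both of these genes, endosperm and embryo lay above every other library. Zm00001d019191 was at 250 and 465 TPM in endosperm and embryo and reached 484 TPM in Primary Root(6DAS). Zm00001d025784 was at 167 and 181 TPM in endosperm and embryo and reached 180 TPM in the 2mm Tassel.

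Across all partners outside the 7 members, a difference of at least 4-fold between endosperm and embryo was limited to a small share. Partners of both factors were expressed above the median entry in the total RNA endosperm library, with medians of 8.59 TPM for o2 and 8.32 TPM for pbf1. The median was 1.20 TPM over all entries tested and 1.69 TPM over the tested proteins of the pair list. Of 835 o2 partners tested in total RNA, 29 (3.47%) were at least 4-fold higher in endosperm than embryo and 59 (7.07%) at least 4-fold lower, beside 2.32% and 9.43% of all entries and 1.23% and 10.8% of the tested proteins of the pair list. Of 110 pbf1 partners, 4 (3.64%) were higher and 10 (9.09%) lower. The 23 shared partners included 19 tested, of which 1 was higher and 2 were lower.

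The ribosome-bound counts were 62 of 964 o2 partners higher (6.43%) and 82 lower (8.51%), beside 1.83% and 14.2% of all entries and 2.06% and 16.03% of the tested proteins of the pair list. For pbf1 they were 4 of 135 higher (2.96%) and 16 lower (11.9%). A level in endosperm above that of every other library was found for 90 o2 partners in total RNA (10.8%) and 105 in ribosome-bound RNA (10.9%), beside 4.95% and 3.17% of all entries and 3.61% and 3.54% of the tested proteins of the pair list. For pbf1 partners it was 7 (6.36%) and 11 (8.15%). These counts compare single libraries, and no test was run on them.

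**Figure D5:**
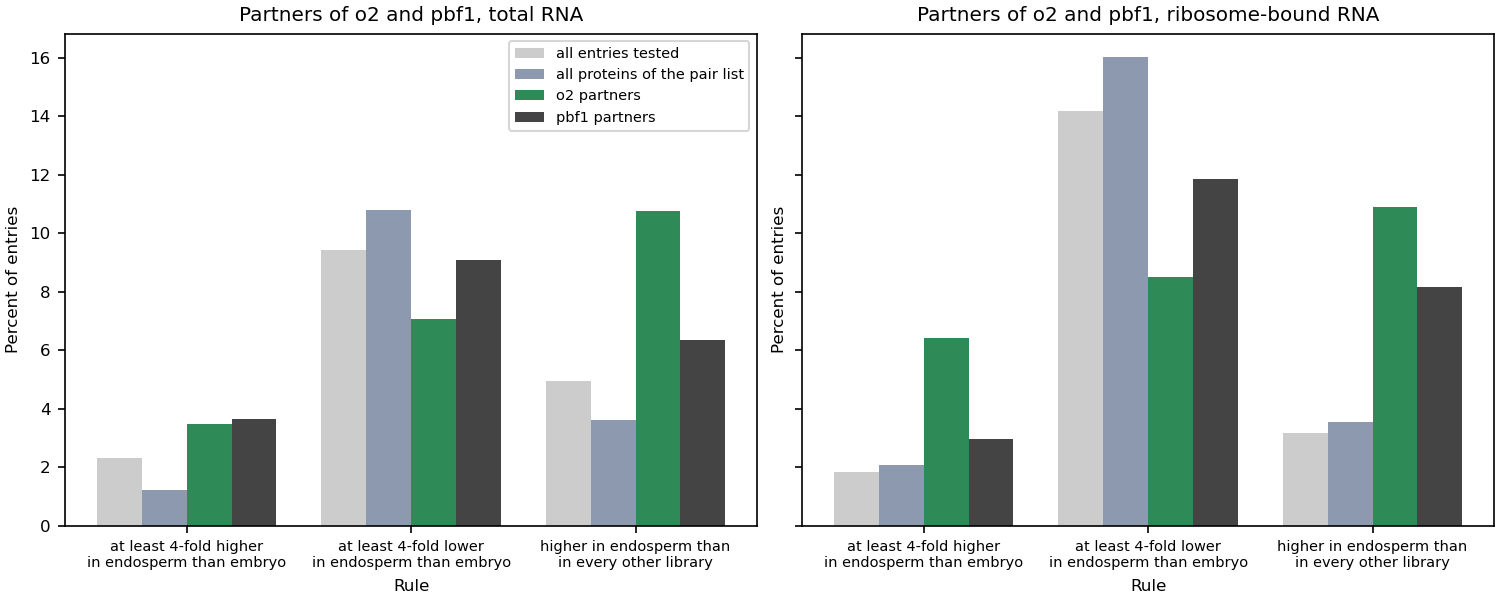
Percent of entries past each of 3 rules in total RNA (left) and ribosome-bound RNA (right), for all entries tested, all proteins of the pair list, partners of o2 and partners of pbf1, both partner sets without the 7 members. Partners of o2 were higher in endosperm than in every other library in 10.8% and 10.9% of cases, against 4.95% and 3.17% of all entries.

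Partners were next compared between inflorescence and leaf, the organ classes with most libraries, to see how RNA of proteins paired with o2 and pbf1 was distributed outside the kernel. Tissues of a class were the units, and some leaf positions gave a library marked L and another marked N, letters without an explanation in the labels, so the p-values may be too small. Calls were made with limma at a Benjamini-Hochberg adjusted p under 0.05 for a difference of at least 1 log2 unit in either direction. In total RNA 421 of 835 o2 partners (50.4%) were called higher in inflorescence and 43 (5.15%) lower, beside 36.8% and 10.5% of all 24997 entries. Of 110 pbf1 partners, 48 (43.6%) were called higher and 10 (9.09%) lower. Over all tested proteins of the pair list the shares were 42.1% and 10.0%, close to those of the pbf1 partners. Partners of both factors had a higher median endosperm level than either comparison set, and log2(TPM + 1) understates changes of low entries. Shares among entries of matched level were not computed.

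In ribosome-bound RNA 599 of 964 o2 partners (62.1%) were called higher and 41 (4.25%) lower, beside 46.1% and 11.5% of 25807 entries, and for pbf1 75 of 135 (55.6%) were higher and 10 (7.41%) lower. Over the tested proteins of the pair list the shares were 51.5% and 10.6%. The median of all entries was itself shifted towards inflorescence, by 0.65 in total RNA and 0.90 in ribosome-bound RNA (log2). The median partner of o2 was shifted by 1.01 and 1.42, and that of pbf1 by 0.82 and 1.28. After quantile normalization, which takes out that shift, the split of the partners of either factor was 219 higher and 107 lower in total RNA instead of 463 and 52, and 320 and 151 in ribosome-bound RNA instead of 662 and 50. All entries then split into 4516 and 4399, and into 6331 and 5482.

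Of the 10 named partners, 3 were called higher in inflorescence in both assays, and all 3 were partners of pbf1. Zm00001d025784 was at 98.4 ± 44.4 TPM in the 6 inflorescence libraries and at 25.6 ± 9.27 TPM in the 11 leaf libraries (mean ± SD), a log2 fold change of 1.86 (SE 0.243, limma adjusted p = 6.13e-07). Zm00001d019191 was at 319 ± 69.6 TPM against 110 ± 51.1 TPM, a log2 fold change of 1.63 (SE 0.263, limma adjusted p = 9.68e-06). Zm00001d014258 was at 13.4 ± 4.31 TPM against 3.42 ± 3.00 TPM, a log2 fold change of 1.9 (SE 0.338, limma adjusted p = 3.27e-05). In ribosome-bound RNA their log2 fold changes were 2.46, 2.28 and 1.76, with limma adjusted p of 0.000308, 0.00727 and 0.00951.

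Among the o2 partners, Zm00001d031168 was called in total RNA, where inflorescence stood at 696 ± 235 TPM (mean ± SD, n = 6) and leaf at 354 ± 210 TPM (mean ± SD, n = 11), with a log2 fold change of 1.16 (limma adjusted p = 0.00486). In ribosome-bound RNA it was not called, with a log2 fold change of 0.10 (limma adjusted p = 0.902). The pbf1 partner Zm00001d045431 was called in ribosome-bound RNA only, with 1.19 (limma adjusted p = 0.0246) against 0.38 in total RNA (limma adjusted p = 0.184). Whether the effect differed between the assays was not tested. The other 5 named partners, 4 of o2 and 1 of pbf1, were not called in either assay, and 4 of those 5 had means of at most 1.18 TPM in both organ classes.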

How the data were processed

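The authors deposited TPM per entry for total RNA and for ribosome-bound RNA. The protein pairs were deposited by the authors as a list without a score. The submitters' processing notes name the build B73 RefGen_v4 and HISAT, StringTie, RSEM, Bowtie 1.1.2, SAMtools 1.9 and cutadapt 1.9.1, without the role of each tool. TPM keeps no depth, so no counting interval is given. A line of the total RNA table that held 2 records was split. Small RNA and circular RNA files were not used, since their features carry no gene identifier.

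The members and lists were chosen with earlier results of these data known. Differences used log2(TPM + 1), which understates changes of low entries. Entries that reached 1 TPM in 2 or more libraries entered limma 3.58.1 (R 4.3.3, mean-variance trend), with 1 fit over all organ classes and Benjamini-Hochberg adjustment over all entries, checked on simulated data, where fewer of the changed entries were recovered in ribosome-bound than in total RNA. Other work used Python 3.11.15 with pandas 2.3.3. Named beyond the members were the 3 entries most like the 27 kDa gamma zein, o2 and pbf1, the 5 partners of each factor highest in endosperm, and neighbours by identifier number. Of the member identifiers, 0 matched the 49888 genes of the RefSeq table for Zm-B73-REFERENCE-NAM-5.0. Replicates are pooled within libraries, so tissues of a class are the units and p-values rest on their spread. Alternatives changed the pseudocount, the filter, the scaling, the threshold and the libraries.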

Additional observations from a re-analysis of the deposited data

Results flagged for a closer look

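Dixon's criterion was applied to 18 combinations of gene, assay and organ class with 4 to 10 libraries. In 5 of them a library stood apart from the rest of its class. The criterion flags about 1 group in 20 by chance only where values are normally distributed. Many of the zein and o2 values were at or near 0, so the 5 flags cannot be set against that rate. In ribosome-bound leaf RNA, 4 of the 5 flagged libraries were the base of the stage 2 leaf-L(V5). There the 27 kDa gamma zein was at 2.79 TPM with the next leaf at 0.96 TPM, and the 50 kDa gamma zein was at 0.67 TPM with the next at 0.13 TPM. The alpha zein was at 4.65 TPM with the next leaf at 1.61 TPM, and o2 was at 0.07 TPM while the other 7 leaves were listed at 0. With those 7 leaves at 0, any o2 value above 0 would have been flagged. The 4 genes are not independent flags, since they share that library. In total RNA of the inflorescence, the 50 kDa gamma zein was at 0.19 TPM in the 2mm Tassel with the next library at 0.04 TPM.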

How the results depend on the processing

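The counts of members at least 4-fold higher in endosperm than in embryo or than in the highest library outside the kernel moved by at most 1 under the other pseudocounts, scalings and quantile normalization. The 27 kDa gamma zein lay 0.38 below the median gene in its ribosome-bound to total RNA ratio, and 0.92 above it (log2) with no filter on low values, where genes at 0 in both tables enter the median. The count of 32 partners of o2 or pbf1 at least 4-fold higher in endosperm than embryo in total RNA was 74 at 2-fold, 17 at 8-fold and 20 when at least 5 TPM in 2 libraries was required, beside 4.58%, 1.36% and 1.91% of all entries. Of partners called between inflorescence and leaf, 515 in total RNA and 712 in ribosome-bound RNA, quantile normalization left 326 and 471. Leaving out each inflorescence library in turn gave 657 to 677 in ribosome-bound RNA. Of partners 56.8% to 58.7% were then higher and 4.18% to 4.83% lower, beside 43.9% to 44.9% and 10.3% to 11.3% of all entries. The same was not run in total RNA, where the class has 6 libraries. With the 1cm Tassel and husk leaf left out, an alternative chosen after seeing the data, the counts were 565 and 756. Of all entries 41.8% were then higher and 10.4% lower in total RNA, and 49.2% and 11.5% in ribosome-bound RNA. For the partners these shares were 55.8% and 5.30%, and 65.7% and 4.55%. The other alternatives kept these counts within 1.5 times. No paired analysis was possible because the pools that share replicate numbers stand behind a single list of pairs and enter no test. Single libraries per tissue and unknown depth limit every kernel value.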
